A study of Mus musculus with 2 samples.

Results

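The genes described are 10 members of the piRNA pathway of the mouse testis, taken by symbol from the 32285 genes counted in the series: Piwil1, Piwil2, Piwil4, Mael, Tdrd1, Tdrd9, Mov10l1, Tdrkh, Pld6 and Asz1. All 10 were found. The rule that names them uses no measured value. The data are single-cell libraries (10x 3′ V3) made from the whole testis of 13-day-old C57BL/6 mice, 1 for each of 2 genotypes. The knockout library came from testes that carried Psma7 F/- together with Stra8-Cre KI/+, a Cre driven by Stra8, a gene that germ cells turn on before meiosis, and the control library from testes that carried Psma7 F/+, for which the label gives no Cre. Psma7 encodes an α subunit of the 20S proteasome. The number of animals behind each library is not given, and every interval below covers counting error only, since a genotype had 1 library.

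piRNAs are small RNAs of the germ line that guide PIWI proteins to transposon transcripts and to other targets. In the mouse, long precursors are unwound and cut at the surface of mitochondria, loaded into PIWI proteins within the germ granules called nuage, trimmed and methylated at their 3′ end. PIWIL4 carries piRNAs into the nucleus of the fetal germ cell to direct DNA methylation, PIWIL2 acts in the cytoplasm from the fetus to the spermatid, and PIWIL1 is known from pachytene spermatocytes and round spermatids. The transcription factors A-MYB, encoded by Mybl1, and TCFL5 are known to drive piRNA loci and several genes of the pathway at the pachytene stage.

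Promoters are shown because the genes were compared as a group that shares known regulators. RefSeq promoters on GRCm38.p6, the 250 bases before the transcript start, were matched for 9 of the 10 genes, and Piwil2 had no entry. The windows were searched on both strands for TAACNG and CAACNG, the cores of MYB sites, and for CACGTG, an E-box. Where a gene had more than 1 start, as Piwil4, Tdrd1 and Pld6 did, the first listed was used. CACGTG was found in 5 of the 9 promoters, those of Piwil1, Mael, Tdrd1, Tdrd9 and Mov10l1, against 6.02% of 32851 promoters of the same length. The first listed window of Pld6 lay within the gene span given below. The window of its second start, not used in the count, held 1 CACGTG, 33 bases before that start. TAACNG or CAACNG was found in 4 of the 9, against 43.1% of all promoters, and TAACNG alone in 3, against 19.8%. The promoters of Asz1 and of the first start of Piwil4 held none of these letters. The 4 promoters below belong to genes with a single RefSeq start and a CACGTG. For Piwil1 the window lies within the gene span given below, which begins further upstream. They lie at chr5:128735996-128736245 on the plus strand, chr1:166238745-166238994 on the minus strand, chr12:111971309-111971558 on the plus strand, and chr15:88982744-88982993 on the plus strand, and capitals mark every match to the searched motifs.
Piwil1: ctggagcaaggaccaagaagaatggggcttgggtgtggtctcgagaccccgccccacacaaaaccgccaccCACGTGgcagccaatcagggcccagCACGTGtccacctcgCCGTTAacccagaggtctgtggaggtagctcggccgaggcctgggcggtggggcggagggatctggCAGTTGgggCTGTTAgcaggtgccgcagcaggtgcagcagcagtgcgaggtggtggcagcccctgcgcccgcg
Mael: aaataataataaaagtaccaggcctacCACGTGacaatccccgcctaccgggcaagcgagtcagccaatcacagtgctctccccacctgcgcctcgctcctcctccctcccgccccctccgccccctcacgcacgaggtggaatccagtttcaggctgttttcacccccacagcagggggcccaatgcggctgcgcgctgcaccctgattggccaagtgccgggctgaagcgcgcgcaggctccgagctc
Tdrd9: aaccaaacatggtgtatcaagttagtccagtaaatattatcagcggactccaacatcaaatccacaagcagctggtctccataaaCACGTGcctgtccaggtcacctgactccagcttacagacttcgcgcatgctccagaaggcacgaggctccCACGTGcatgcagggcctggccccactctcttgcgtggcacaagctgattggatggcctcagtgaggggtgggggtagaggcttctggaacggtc
Mov10l1: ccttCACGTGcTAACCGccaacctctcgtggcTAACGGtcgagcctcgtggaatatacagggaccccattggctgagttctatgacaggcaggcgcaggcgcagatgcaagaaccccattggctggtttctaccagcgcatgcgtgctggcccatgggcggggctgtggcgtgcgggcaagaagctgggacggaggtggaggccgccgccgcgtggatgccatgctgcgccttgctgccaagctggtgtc
Piwil1 held 2 copies of CACGTG together with 3 MYB cores, and Mov10l1 held 1 CACGTG followed by 2 copies of TAACNG. Tdrd9 held 2 copies of CACGTG and Mael 1, with no MYB core in either window. A match describes the letters and not binding.

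On mm10, with GENCODE M21, the 10 protein-coding genes lie on 10 chromosomes. The PIWI genes are Piwil1 at chr5:128702524-128755474 on the plus strand, Piwil2 at chr14:70372477-70429383 on the minus strand and Piwil4 at chr9:14696230-14740733 on the minus strand. The nuage and helicase genes are Mael at chr1:166201201-166238747 (minus), Tdrd1 at chr19:56826209-56870012 (plus), Tdrd9 at chr12:111971559-112068854 (plus) and Mov10l1 at chr15:88982909-89055152 (plus). The mitochondrial genes are Tdrkh at chr3:94413273-94434668 (plus), Pld6 at chr11:59783897-59787645 (minus) and Asz1 at chr6:18050964-18109061 (minus).

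The unfiltered libraries held 112746953 UMIs (knockout) and 146528736 UMIs (control). Cells were barcodes that held 1000 or more UMIs and 500 or more genes, with mitochondrial UMIs at 20% or less. Doublets removed, 10554 knockout cells with a median of 5392 UMIs and 10718 control cells with a median of 8033 UMIs were left. In all, 28 cell barcodes were shared by both libraries, of which 1 was a germ cell in both. Germ cells, chosen by other markers, numbered 396 in the knockout library (3.75% of cells) and 3775 in the control (35.2%). They were clustered without genes of the piRNA pathway, and clusters were named by the stage whose markers they resembled most, with 1 condition: a cluster with Kit above the germ cell mean was not named undifferentiated. The condition set the name of 2 clusters called differentiating below, which scored higher for undifferentiated markers and held 42 of the 51 knockout and 661 of the 1811 control cells of that class. Undifferentiated spermatogonia numbered 286 in the knockout library and 513 in the control, differentiating spermatogonia 51 and 1811. Meiotic entry, with 524 cells, and leptotene and later spermatocytes, with 440 cells, were named in the control alone. A per-cell gate on markers placed 43 knockout cells in the meiotic stages, and a finer clustering placed 16 there.

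The stages carried defining markers, though neither class of spermatogonia carried them alike in both libraries. Gfra1, the GDNF receptor of stem-like cells, stood at 365 CPM in knockout and 254 CPM in control undifferentiated spermatogonia (CPM, the gene's UMIs per 1000000 UMIs of the class), and at 11.3 and 5.28 CPM in the differentiating class. Other markers of the undifferentiated class went both ways. Ret, Id4, Etv5, Nanos2, Lhx1, Bcl6b, Tspan8, Eomes and Mcam were also higher in knockout undifferentiated cells, with Id4 at 99.3 and 41.5 CPM. Zbtb16, Nanos3, Lin28a, Sall4, Utf1, Upp1 and Egr4 were lower in them. Zbtb16 stood at 387 CPM in knockout and 586 CPM in control cells, and Egr4 at 90.8 and 150 CPM. Sdc4 was near-equal, at 330 and 331 CPM. Kit, the receptor that marks differentiation, stood at 145 CPM in knockout and 172 CPM in control differentiating spermatogonia. Later markers of the same list were lower in the knockout class, with Esx1 at 21.7 CPM in knockout and 180 CPM in control cells, Prss50 at 1.74 and 75.9 CPM, Dmrtb1 at 18.2 and 64.2 CPM and Rhox13 at 32.1 and 86.6 CPM. In the control, Stra8 reached 1249 CPM at meiotic entry, and Sycp1, of the synaptonemal complex, 2087 CPM in leptotene and later cells. Psma7 stood at 96.2 CPM in knockout and 238 CPM in control undifferentiated spermatogonia, and at 38.2 and 292 CPM in differentiating ones. Where the deleted exons lie is not stated, so a 3′ count may not read them and then checks nothing.

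In control germ cells the 10 genes followed 3 patterns over the stages as named. Piwil1, Piwil4, Tdrd1, Tdrd9, Piwil2 and Pld6 were lower in both meiotic classes than in undifferentiated spermatogonia. Tdrkh was higher at each later stage, and Mael was highest in leptotene and later cells. Mov10l1 and Asz1 were lowest at an intermediate stage and higher again in leptotene and later cells, Mov10l1 through 44 of the 440 cells: in the other 396 it stood at 172 CPM, below its 186 CPM at meiotic entry.

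**Figure D1:**
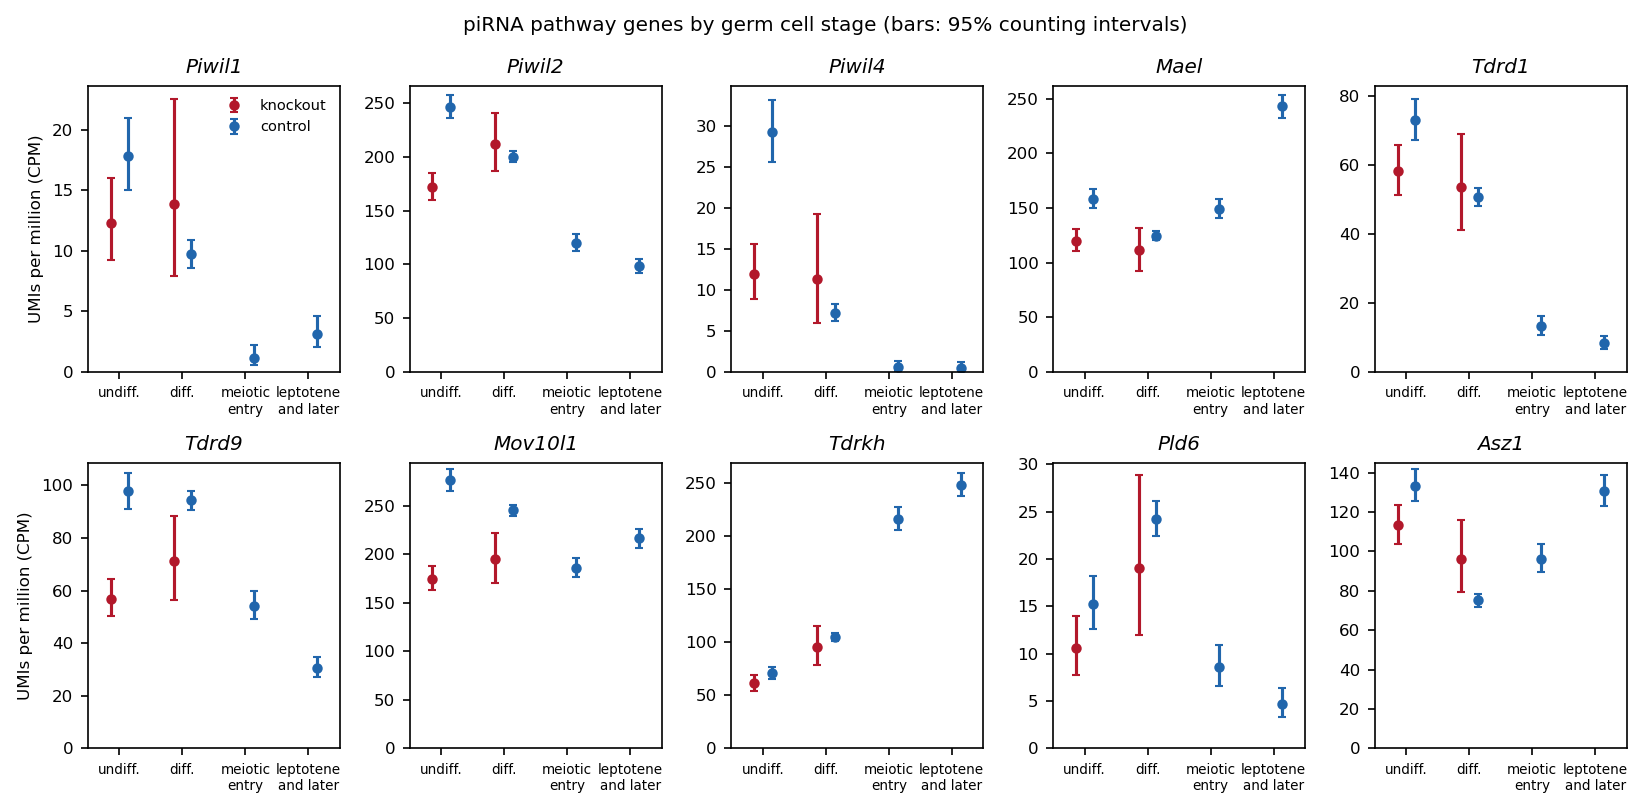
Level of each gene in CPM (vertical axis from 0) over the 4 germ cell stages (horizontal axis), with knockout points in red left of control points in blue and bars for 95% Poisson counting intervals. All 10 red points lie below the blue ones in undifferentiated spermatogonia, and the knockout library has no point at the meiotic stages because it had no cell named there.

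Among the PIWI proteins, Piwil4, the nuclear partner of fetal piRNAs, had the steepest course. It stood at 29.2 CPM in control undifferentiated spermatogonia (interval 25.6 to 33.2), at 7.20 CPM in differentiating ones, at 0.526 CPM at meiotic entry and at 0.469 CPM in leptotene and later cells. The last 2 levels rested on 4 UMIs each, and their intervals overlapped. Piwil2 stood at 247, 200, 120 and 98.1 CPM over the same stages, each interval below the one before. Piwil1 stood at 17.8, 9.71, 1.18 and 3.17 CPM, with overlapping intervals at the last 2 stages.

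The genes for the mitochondrial step split. Tdrkh, a Tudor and KH domain protein that holds PIWI proteins at mitochondria for trimming, stood at 71.0, 105, 216 and 248 CPM from undifferentiated spermatogonia to leptotene and later cells, and no interval overlapped the next. Pld6, the endonuclease of the outer mitochondrial membrane that cuts precursors, stood at 15.2, 24.2, 8.55 and 4.69 CPM, so its highest level fell in differentiating spermatogonia. Asz1, an ankyrin repeat scaffold that joins nuage to mitochondria, stood at 133, 75.1, 96.3 and 131 CPM. The first and last Asz1 levels did not differ beyond their intervals.

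Of the nuage proteins and helicases, Tdrd1, a Tudor protein that binds methylated PIWIL2, stood at 73.3, 50.8, 13.3 and 8.33 CPM. Tdrd9, a Tudor protein with a helicase domain that acts with PIWIL4, stood at 97.8, 94.4, 54.2 and 30.6 CPM, and its first 2 levels had overlapping intervals. Mov10l1, the helicase that binds piRNA precursors, stood at 277, 245, 186 and 216 CPM. Mael, a nuage protein needed for transposon silencing, stood at 158, 125, 149 and 243 CPM.

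Set against all genes of the control, these courses were not unusual in number. In differentiating over undifferentiated spermatogonia, 1 of the 10 genes, Piwil4, was at least 2-fold lower, against 16.3% of 17086 genes measured, and none was 2-fold higher, against 7.79%. At meiotic entry over undifferentiated spermatogonia 4 were at least 2-fold lower, against 39.4% of genes, and 1, Tdrkh, was 2-fold higher, against 11.9%. In leptotene and later cells over undifferentiated ones 6 were lower, against 44.6%, and 1 was higher, against 13.0%. Between the 2 meiotic classes none of the 9 measured was 2-fold lower, against 15.1% of genes, and 1, Piwil1, was higher, against 8.0%. Of the 27 Piwil1 UMIs of the later class 24 came from 44 cells, and the other 396 cells held 3 UMIs, 0.392 CPM (0.0809 to 1.15), against 1.18 CPM at meiotic entry. Over those 396 cells alone, Tdrd9, Tdrd1 and Pld6 were at least 2-fold lower than at meiotic entry, with log2 ratios of -1.46, -1.37 and -1.26. Mael, Tdrkh and Asz1 were higher in them, at 0.62, 0.24 and 0.30. The share of all genes was not computed for that comparison. The median gene itself stood at a log2 ratio of -0.57 at meiotic entry and -0.74 in leptotene and later cells, both over undifferentiated spermatogonia. Taking both meiotic classes together and centring on the median gene turned Mov10l1 to 0.17 and Asz1 to 0.40 on the log2 scale, so that these 2 were lower in CPM but higher relative to the median gene. Piwil1, Piwil2, Piwil4, Tdrd1, Tdrd9 and Pld6 remained below 0 after centring, and Mael and Tdrkh above it.

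The 14 control clusters with a stage showed a second high point for most of these genes. A cluster of 44 cells within the leptotene and later class, with Rsph1, Kctd19 and Gml among its leading genes, had the highest mean marker level of that class and little Stra8, at 19.4 CPM. Piwil1 stood there at 27.3 CPM, from 24 UMIs in 12 of the 44 cells, against 0.787 CPM over the other 920 meiotic cells, where 11 cells held a Piwil1 UMI. The log2 ratio was 5.09 (4.06 to 6.25). Median depth was 17180 UMIs in the cluster and 13724 in the other meiotic cells.

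Other members were high in the same 44 cells. Mov10l1 stood at 602 against 179 CPM, Piwil2 at 385 against 92.4 CPM, and Mael at 356 against 190 CPM. Tdrd9 stood at 126 against 36.9 CPM, Tdrd1 at 36.5 against 9.18 CPM, Asz1 at 235 against 108 CPM, and Pld6 at 14.8 against 6.03 CPM. In all, 7 of the 9 genes measured were at least 2-fold higher in this cluster than in other meiotic cells, against 17.6% of 12102 genes, and none was 2-fold lower, against 22.1%. Tdrkh was lower there, at 179 against 236 CPM, and Piwil4 had no UMI in the cluster and 8 in the other cells. Mybl1 stood at 116 CPM in the cluster and 119 CPM in the other meiotic cells. The other meiotic cells were not uniform. A cluster of 116 of them, in the leptotene and later class, held Asz1 at 184 CPM (167 to 203) and Mael at 236 CPM. Mov10l1 stood at 167 CPM and Piwil2 at 86.1 CPM in those 116 cells. The cluster of 44 cells was singled out after its values were seen, and with 1 library it has no replicate.

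**Figure D2:**
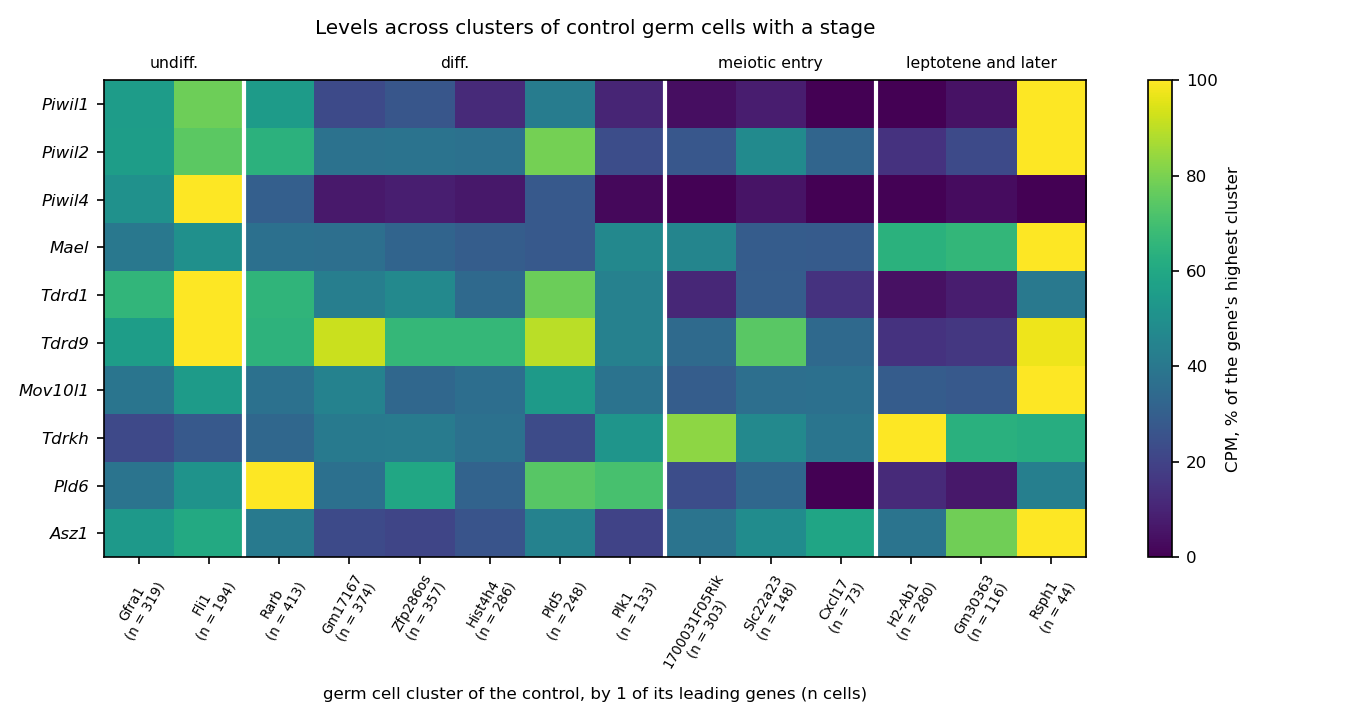
Level of each gene across the 14 clusters of control germ cells that have a stage, as a percentage of that gene's highest cluster, with clusters on the horizontal axis grouped by stage and labelled by 1 leading gene and their number of cells. The last cluster, of 44 cells and led by Rsph1, is the highest for Piwil1, Piwil2, Mael, Mov10l1 and Asz1, while the Fli1 cluster of undifferentiated spermatogonia is the highest for Piwil4, Tdrd1 and Tdrd9. For Piwil1 and Tdrd9 the counting intervals of these clusters overlap, so their order is not resolved.

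All 10 genes were lower in undifferentiated spermatogonia of the knockout library than in those of the control. Log2 ratios of knockout over control ran between -1.29 and -0.21 with a median of -0.52, so that the median gene of the 10 stood at 69.8% of its control level. Over all 15038 genes with at least 30 UMIs in this class, the median was 0.06, and 44.6% of genes were below 0. The interval lay below 0 for 9 of the 10, against 18.4% of all genes, and above 0 for none, against 25.5%. At least 1.5-fold lower were 3, Piwil4, Tdrd9 and Mov10l1, against 8.74% of genes, and none was 1.5-fold higher, against 15.1%.

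Piwil4 stood at 11.9 CPM in the knockout library (8.90 to 15.5) and 29.2 CPM in the control (25.6 to 33.2), 41.0% of the control level, from 53 and 236 UMIs. At a depth of 5000 UMIs per cell, 6.30% of knockout and 12.1% of control undifferentiated spermatogonia held a Piwil4 UMI, and 0.0426% and 0.204% of Sertoli cells did. The knockout level lay between those of undifferentiated and differentiating control cells, and its interval overlapped neither. Tdrd9 stood at 57.0 CPM in knockout and 97.8 CPM in control cells, a log2 ratio of -0.78 (-0.99 to -0.57). Mov10l1 stood at 174.9 CPM in knockout and 277 CPM in control cells, a log2 ratio of -0.66 (-0.78 to -0.54). Neither pair of intervals overlapped.

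The other PIWI genes stood at near-equal ratios. Piwil2 was at 172 CPM in knockout and 247 CPM in control cells (log2 ratio -0.52, -0.64 to -0.40). Piwil1 was at 12.3 and 17.8 CPM (log2 ratio -0.52, -1.01 to -0.07). Pld6 was at 10.5 CPM in knockout and 15.2 CPM in control cells, with the same log2 ratio of -0.52 (-1.05 to -0.03). Piwil1 and Pld6 were counted with 55 and 47 UMIs in the knockout library, and their intervals held 0 under 7 of the 9 alternative settings each, with ratios of -0.58 to -0.18 for Piwil1 and -0.73 to -0.26 for Pld6.

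The smaller differences were those of Mael, Tdrd1, Asz1 and Tdrkh. Mael stood at 120 CPM in knockout and 158 CPM in control cells (log2 ratio -0.40, -0.55 to -0.25), and Tdrd1 at 58.3 and 73.3 CPM (-0.33, -0.55 to -0.12). Asz1 stood at 113 CPM in knockout and 133 CPM in control cells (-0.24, -0.39 to -0.08; the interval held 0 under 3 of those 9 settings). Tdrkh stood at 61.4 and 71.0 CPM, with a log2 ratio of -0.21 and an interval (-0.42 to 0.00094) that held 0. Summed over the 10 genes, undifferentiated spermatogonia held 792 CPM in the knockout library and 1120 CPM in the control. At 5000 UMIs per cell, 254 knockout cells showed 2.83 of the 10 genes on average and 456 control cells 3.52, and 12.2% of knockout cells against 25.0% of control cells showed 5 or more. Sertoli cells at the same depth showed 0.139 of the genes in the knockout library and 0.261 in the control.

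**Figure D3:**
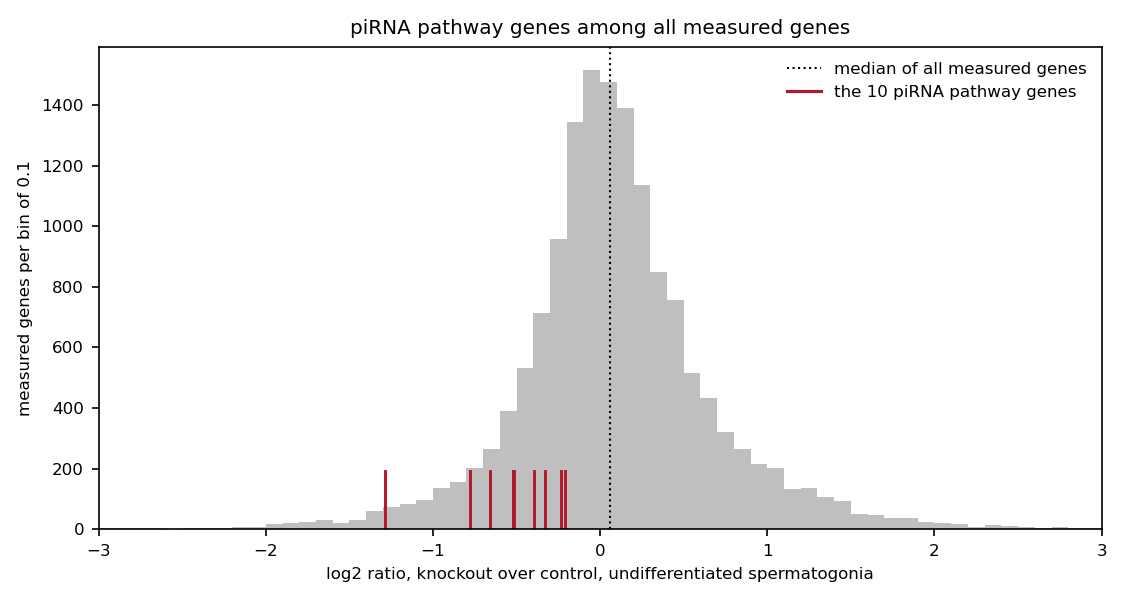
Number of genes (vertical axis) by log2 ratio of knockout over control in undifferentiated spermatogonia (horizontal axis) for genes with at least 30 UMIs, with the 10 piRNA pathway genes as red ticks and the median of all genes as a dotted line. All 10 ticks lie left of the median of 0.06, between -1.29 and -0.21, within the range that many other genes cover.

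The make-up of the class differed between the libraries, and the members differed in level between its clusters. Undifferentiated spermatogonia formed a Gfra1-high cluster and a cluster led by Rin2, Fli1 and Upp1. The second held 12 of 286 knockout cells (4.20%) and 194 of 513 control cells (37.8%). All 10 genes were higher in it than in the Gfra1-high cluster of the control, Piwil4 by 1.97-fold, Tdrd9 by 1.80-fold and Asz1 by 1.12-fold at the least. The counting intervals of the control clusters overlapped for Piwil1, Tdrkh, Pld6 and Asz1. The share of all genes that were higher in it was not computed. The part of this make-up in the ratios of the whole class was not tested.

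Within the Gfra1-high cluster, which held 274 knockout and 319 control cells, the differences were smaller. All 10 ratios were again below 0, against 45.8% of all genes, and the median was -0.35 against 0.04 for all genes. Of the 10 intervals 6 lay below 0, against 14.9% of 14064 genes, and none above, against 19.6%. At least 1.5-fold lower was 1, Piwil4, against 6.14% of genes, and none was higher, against 11.9%. Piwil4 stood at 10.4 CPM in knockout and 20.4 CPM in control cells (log2 ratio -0.96, -1.52 to -0.44). Mov10l1 had a log2 ratio of -0.43 (-0.56 to -0.29), Tdrd9 of -0.40 (-0.65 to -0.16), Piwil2 of -0.36 (-0.50 to -0.21), Mael of -0.28 (-0.45 to -0.11) and Asz1 of -0.18 (-0.36 to -0.00461). Tdrd1, at 56.5 and 59.7 CPM, and Tdrkh, at 63.1 and 63.9 CPM, had intervals on both sides of 0, as did Piwil1 and Pld6.

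In the Fli1 and Upp1 cluster the 12 knockout cells gave levels whose intervals held those of the control for most genes, from few UMIs. Piwil4 stood at 39.1 CPM in knockout cells, from 9 UMIs and with an interval of 17.9 to 74.3 CPM, and 40.3 CPM in control cells. Mael stood at 178.3 CPM in knockout (128 to 242) and 179 CPM in control cells, and Tdrd1 at 91.3 CPM (56.5 to 140) and 90.4 CPM. Mov10l1 stood at 196 CPM in knockout (143 to 262) and 331 CPM in control cells, and Tdrkh at 30.4 CPM (12.2 to 62.7) and 80.0 CPM, and these intervals did not hold the control level.

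**Figure D4:**
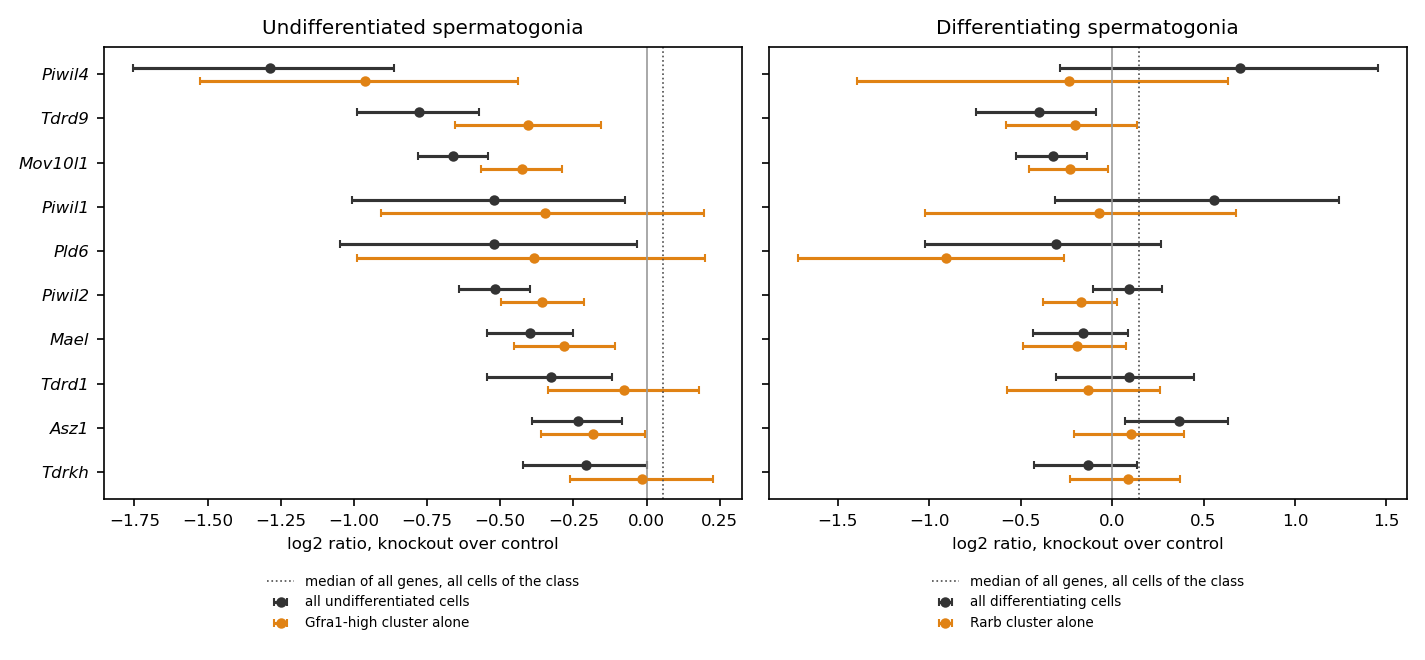
Log2 ratio of knockout over control (horizontal axis) for each gene, in undifferentiated spermatogonia on the left and differentiating spermatogonia on the right, over all cells of the class in black and within 1 cluster in orange, with 95% counting intervals and a dotted line at the median of all genes. All 10 ratios on the left lie below 0 in both settings, and in the cluster alone they lie nearer to 0.

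Other values differed between the genotypes in the same cells. In the Gfra1-high cluster the 10 immediate-early genes measured, all detected in both libraries, summed to 1085 CPM in knockout and 594 CPM in control cells, and the median share of mitochondrial UMIs was 4.06% and 7.07%. The 11 Sertoli cell markers, all detected, summed to 285 CPM in knockout and 147 CPM in control cells, and to 5949 and 2945 CPM in the free RNA of each library. From those markers free RNA made up at most 4.66% of UMIs of knockout and 4.27% of control undifferentiated spermatogonia. Median depth was 13424 UMIs in knockout and 12966 UMIs in control cells of the cluster. Stra8 was lower there too, at 39.2 CPM in knockout and 66.1 CPM in control cells. The part of these values in the ratios was not tested.

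Over all cells named differentiating, which were spread over clusters in unlike proportions in each library, the genes gave no common direction. The median log2 ratio of the 10 genes was -0.02 against 0.15 for all 16201 genes measured. Of the 10 genes 5 were below 0 and 5 above, against 39.9% of all genes below 0. The interval lay below 0 for 2, against 11.7% of genes, and above 0 for 1, against 20.8%. Tdrd9 stood at 71.1 CPM in knockout and 94.4 CPM in control cells (log2 ratio -0.40, -0.74 to -0.09), and Mov10l1 at 195 and 245 CPM (-0.33, -0.53 to -0.14). Asz1 stood higher, at 96.3 CPM in knockout and 75.1 CPM in control cells (0.37, 0.07 to 0.64). Sertoli cell markers summed to 235 CPM in knockout and 120 CPM in control cells of this class and immediate-early genes to 868 and 403 CPM, and their part was not tested. None was at least 1.5-fold lower, against 9.76% of genes, and 1, Piwil4, was 1.5-fold higher, against 27.4%, from 13 UMIs and with an interval of -0.29 to 1.45. Whether the ratios differ between the undifferentiated and the differentiating class was not tested.

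Most of the 51 knockout cells of that class, 38, were in 1 cluster with Prok2 and Rarb among its leading genes, against 413 of 1811 control cells. Within it 8 of the 10 genes were below 0 and 2 above, against 45.4% of all 14340 genes measured below 0, and the median was -0.18 against 0.05 for all genes. It is 1 of the 2 clusters that the Kit condition kept out of the undifferentiated class. Named without that condition, the undifferentiated class held 328 knockout and 1174 control cells, all 10 ratios stayed below 0 with a median of -0.38, Piwil4 at -0.61 and Asz1 at -0.01, and the differentiating class was left with 9 knockout cells. No share of all genes below 0 is given for that naming. Within the Rarb cluster other values were as follows. Pld6 stood at 17.8 CPM in knockout and 34.4 CPM in control cells (-0.91, -1.72 to -0.27), and it was the 1 gene at least 1.5-fold lower, against 8.91% of genes. None was 1.5-fold higher, against 14.1%. Mov10l1, at 190 and 224 CPM, was the other of the 2 genes with an interval below 0, against 8.17% of genes, and none lay above, against 11.8%. Piwil2, at 220 CPM in knockout and 248 CPM in control cells, and Mael, at 114 and 131 CPM, had intervals that held 0.

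Pooled germ cells, whose stages differed between the libraries, gave other values. Over all germ cells Tdrkh stood at 70.1 CPM in knockout and 140 CPM in control cells (log2 ratio -0.997), and Piwil1 at 12.8 and 8.28 CPM (0.63). Piwil4 and Tdrd1 were higher in pooled knockout germ cells too, at 0.57 and 0.48, although both were lower in undifferentiated ones. Over all called cells the log2 ratios of the 10 genes ran between -3.31 and -1.68, in libraries with 3.75% and 35.2% germ cells.

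The other genes of the pathway were read from lists. Of 21 further processing and nuage genes, 18 reached 30 UMIs in undifferentiated spermatogonia, and 17 were below 0, with a median of -0.34, 13 intervals below 0 and 1 above, beside the 18.4% and 25.5% of all genes. The lowest were Henmt1, the methyltransferase of the piRNA 3′ end, at 20.0 CPM in knockout and 33.2 CPM in control cells (log2 ratio -0.73, -1.10 to -0.38), and Fkbp6, a co-chaperone of piRNA loading, at 329 and 491 CPM (-0.58, -0.67 to -0.49). The highest were Prmt5, the arginine methyltransferase that marks PIWI proteins, at 54.7 CPM in knockout and 42.9 CPM in control cells (0.35, 0.11 to 0.59), and Ddx39b, an RNA helicase of export, at 152 and 157 CPM (-0.04). Ddx4, the mouse Vasa helicase of nuage, stood at 259.9 and 295 CPM (-0.18, -0.29 to -0.08). Within the Gfra1-high cluster 15 of the 18 were below 0, against 45.8% of all genes, with a median of -0.26 against 0.04, 10 intervals below 0 and 1 above, beside 14.9% and 19.6% of all genes. In differentiating spermatogonia 19 were measured, with a median of 0.01, 5 intervals below 0 and 5 above, beside the 11.7% and 20.8% of all genes.

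The genes of silencing in the nucleus did not share 1 direction. Of 7 on the list, 4 were measured, with 3 intervals below 0 and 1 above, beside 18.4% and 25.5% of all genes, and a median of -0.52. Spocd1, which links PIWIL4 to DNA methylation, stood at 6.73 CPM in knockout and 19.2 CPM in control cells (log2 ratio -1.49, -2.13 to -0.94), the lowest ratio on any of the lists, and Morc1, an ATPase of transposon silencing, at 120 and 180.5 CPM (-0.59, -0.74 to -0.45). Tex15, a partner of PIWIL4, stood at 481 and 659 CPM (-0.45, -0.53 to -0.38). Tex19.1, a germ cell protein linked to transposon control, was higher, at 225 CPM in knockout and 199 CPM in control cells (0.17, 0.06 to 0.29). In control cells Spocd1 stood at 2.30 CPM in differentiating spermatogonia and Morc1 at 32.3 CPM, so both shared with Piwil4 a high level in the undifferentiated class. In the Gfra1-high cluster Spocd1 had a log2 ratio of -1.18 and Morc1 of -0.49.

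Of the 3 known regulators 1 had an interval above 0 and 2 below, beside 25.5% and 18.4% of all genes. Mybl1 stood at 35.4 CPM in knockout and 28.2 CPM in control undifferentiated spermatogonia (log2 ratio 0.33, 0.03 to 0.63), Tcfl5 at 103 and 121 CPM (-0.23, -0.40 to -0.07), and Btbd18, a factor for pachytene piRNA loci, at 42.6 and 51.7 CPM (-0.28, -0.53 to -0.03). In the Gfra1-high cluster the intervals of all 3 held 0. Over the control stages Mybl1 stood at 162.5 CPM in leptotene and later cells, against 28.2 CPM in undifferentiated spermatogonia.

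In Sertoli cells, Pld6, Tdrkh, Piwil2 and Tdrd1 kept a larger share of their germ cell level than the other 6 genes. Relative to germ cells of its own library, the level in knockout Sertoli cells, the supporting cells of the tubule, was 33.3% for Pld6, 10.5% for Tdrkh, 6.67% for Piwil2 and 5.54% for Tdrd1. It was between 0.303% and 2.36% for the other 6. In control Sertoli cells the share was 21.5% for Pld6, 20.9% for Tdrd1, 9.27% for Piwil2 and 7.89% for Tdrkh, and between 2.40% and 6.01% for the other 6. The 6.01% was that of Piwil4, from 14 UMIs.

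Piwil2 stood at 11.97 CPM in knockout Sertoli cells, from 468 UMIs, and at 16.3 CPM in control ones. It was not limited to Sertoli cells among somatic cells. Leydig cells held 10.2 CPM in the knockout library and 11.15 CPM in the control, interstitial stromal cells 8.10 and 9.11 CPM, and endothelial cells 1.10 and 4.84 CPM. Mov10l1 stood at 0.537 CPM in knockout Sertoli cells, from 21 UMIs, and at 5.66 CPM in control ones. In free RNA, read from barcodes with 10 to 100 UMIs, Piwil2 stood at 13.1 CPM in the knockout library and 70.3 CPM in the control, and Mov10l1 at 14.3 and 77.6 CPM. In the knockout library these rest on 22 UMIs of Piwil2 and 24 of Mov10l1, against 468 and 21 UMIs in Sertoli cells. Pld6 stood at 4.42 CPM in knockout and 3.83 CPM in control Sertoli cells, and Tdrkh at 7.34 and 11.1 CPM. Mael, at 0.614 and 8.25 CPM, and Asz1, at 0.614 and 3.83 CPM, were lower in knockout Sertoli cells. In free RNA Mael stood at 11.3 CPM in the knockout library and 107 CPM in the control, and Asz1 at 8.92 and 55.7 CPM. The part of free RNA in these somatic counts was not tested.

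**Figure D5:**
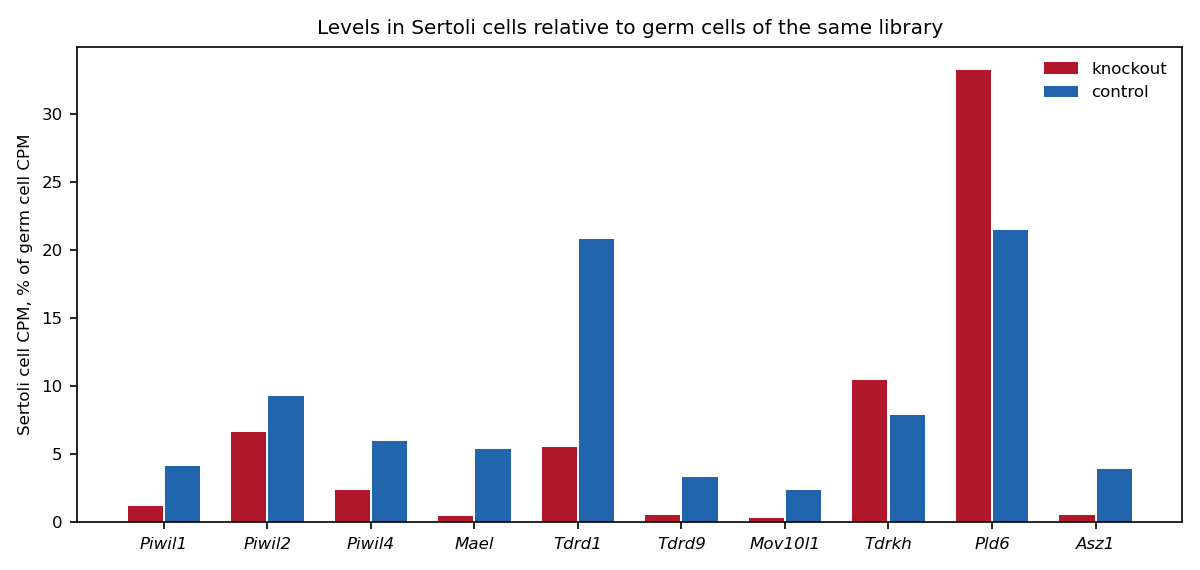
Level of each gene in Sertoli cells as a percentage of its level in germ cells of the same library (vertical axis from 0), with knockout bars in red left of control bars in blue, from 1 library each. In the knockout library Pld6, Tdrkh, Piwil2 and Tdrd1 stand at 5.54% or more, and the other 6 genes at 2.36% or less.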

How the data were processed

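The authors deposited raw, unfiltered UMI counts per gene and barcode, which the file headers credit to Cell Ranger 7.1.0 and the submitters' processing notes to mm10. Filters, alignment settings and whether intronic reads were counted are not given in the sources used here. Everything after the counts was computed from them. Cells needed at least 1000 UMIs, 500 genes and at most 20% mitochondrial UMIs, which 10864 knockout and 11232 control barcodes met. Scrublet (scanpy 1.11.5) scored doublets. In the knockout library its own threshold marked only 5 cells, so that of the control, 0.172, was applied to both, and 310 (2.85%) and 514 cells (4.58%) were removed. Cells were clustered together (2000 variable genes, 30 components, 15 neighbours, Leiden resolution 1, leidenalg 0.10.2), and germ cells were then clustered alone into 17 clusters, each time without genes of the piRNA pathway. A cluster took the germ cell stage with the highest mean standardised marker level, given at least 3 markers, and none with Kit above the germ cell mean was named undifferentiated. Naming without that condition was added as an alternative after seeing the data. Clusters with few UMIs or leading genes of another stage, 59 knockout and 487 control cells, stayed without a stage. This naming rule was settled after clusterings with and without doublets, at resolutions 1 and 2 and under an earlier rule had been seen, with levels of the 10 genes beside them. Counts were summed per class and library and divided by the class total. Levels have exact 95% Poisson intervals, and log2 ratios (0.5 added to each count) exact conditional intervals (scipy 1.17.1). The ratio intervals were run on simulated Poisson counts, the model they assume, without variation between cells or libraries. That run checks the computation and says nothing about error beyond counting. With 1 library per genotype there is no test. A gene counted as measured with at least 30 UMIs over both groups, which all 10 members reached in each knockout comparison of germ cells. In Sertoli cells Piwil1, with 6 knockout and 10 control UMIs, and Piwil4, with 11 and 14, did not reach it. Named beside the members are the 2 highest and 2 lowest of each list, Ddx4, Mybl1 and Psma7. The members and lists were chosen with earlier results of these data known, and the immediate-early genes and single-cluster comparisons were added after seeing the data. Gene names and coordinates came from the deposited feature table and GENCODE M21. The alternatives were other cell minimums, at most 10% mitochondrial UMIs, doublets kept, a marker gate per cell, resolution 2, free RNA subtracted, ratios centred on the median gene and counts thinned to the shallower library.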

Additional observations from a re-analysis of the deposited data

How the results depend on the processing

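No paired analysis was possible because each genotype had 1 library, and for the same reason no replicate could be left out. In undifferentiated spermatogonia the 10 ratios stayed below 0 under every alternative run, and their median lay between -0.58, centred on the median gene, and -0.33, at resolution 2. The number of genes with an interval below 0 lay between 5 and 10. It was 5 at resolution 2, where the class held 168 knockout and 410 control cells, and 6 both with doublets kept and in the Gfra1-high cluster alone. In differentiating spermatogonia the median lay between -0.25 and 0.08. Piwil2, Piwil4, Mael, Tdrd9 and Mov10l1 kept an interval below 0 in undifferentiated cells under all 9 alternatives other than those added later, Piwil1 and Pld6 under 2. Centring on the median gene turned 3 values, Asz1 over all germ cells to -0.11 and, in control meiotic over undifferentiated cells, Mov10l1 to 0.17 and Asz1 to 0.40. Naming stages without the Kit condition turned Asz1 to -1.15 in differentiating cells, of which 9 were knockout, and to 0.034 in control meiotic over undifferentiated cells, and moved Piwil4 to -0.61 in undifferentiated ones. The control meiotic over undifferentiated ratios also depended on how stages were assigned: 8 of 10 moved outside their counting interval at resolution 2 and 7 of 10 under the per-cell gate, Piwil4 to -2.98 and -4.08 against -5.79, none changing sign there. In all, 402 single-gene values stayed within their interval and 53 moved outside it. The cause was not tested. Depth limits Piwil1, Piwil4 and Pld6, with 47 to 55 UMIs in undifferentiated knockout spermatogonia and 13 to 22 in differentiating ones.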
